A study of Mus musculus with 65 samples.

Results

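Fblim1, Tarm1, Sema4a, Apoc4, Igll1, Prss16, Hpgds and Tbxa2r are 8 mouse genes whose promoters gave more accessible newly replicated DNA with triptolide than with DMSO 2 h after labelling. They were picked on the EdU values of that contrast, which are therefore described without a test. The files name 24473 genes at a transcription start site (TSS), and these are 8 of them. All measurements come from E14TG2a embryonic stem cells of strain 129/Ola, which the labels give at passages 5-28 on gelatinized plates with serum and LIF, and every group shares that background.

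The series holds 65 samples in 24 groups. In repli-ATAC-seq, EdU marks DNA made during a 10 min pulse (20 uM), the transposase Tn5 cuts accessible chromatin, and biotin added to the EdU lets streptavidin beads capture the labelled fragments. In all, 6 groups of the inhibitor experiment are EdU fractions and another 6 are the unbound supernatants of the same capture, with 3 libraries in each group. Cells had spent 2 h in DMSO, DRB or triptolide before the pulse and were taken at once (nascent) or after 2 h in 10 uM thymidine. In the unbound groups, which the beads did not capture, nascent and 2 h name the time of harvest and do not mark newly made DNA. The labels give neither the drug doses nor whether the drug was kept through the thymidine chase. A separate experiment without inhibitor compares nascent and 2 h chromatin with 100 EdU-labelled Drosophila S2 cells added to each sample, in 2 libraries per time. The labels do not say which libraries came from separate cultures, and p-values thus reflect library-to-library spread, which may be technical.

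Triptolide blocks the XPB subunit of TFIIH, the general factor that opens promoter DNA for RNA polymerase II, and DRB blocks CDK9, the kinase that releases the paused polymerase into elongation. At most active promoters the nucleosome-free gap is kept by bound factors and the transcription machinery, and replication disrupts it until it is rebuilt on both daughter strands. Promoters of genes that are silent in embryonic stem cells usually have no such gap. The 8 genes act mainly in differentiated cells. Igll1 encodes lambda 5, part of the surrogate light chain of the pre-B-cell receptor. Prss16 is a thymic serine protease and Tarm1 an activating receptor of myeloid cells. Hpgds makes prostaglandin D2 and Tbxa2r is the receptor of thromboxane A2, both in the prostanoid pathway. Fblim1 (migfilin) links filamin to integrin adhesions, Sema4a is a membrane-bound semaphorin that signals to plexins, and Apoc4 is an apolipoprotein of the Apoe cluster.

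For each gene the 1 kb window nearest its TSS was read, in mm10 coordinates. The windows were chr4:141605501-141606500 for Fblim1, chr7:3502001-3503000 for Tarm1, chr3:88460501-88461500 for Sema4a and chr7:19681001-19682000 for Apoc4. Those of the other 4 were chr16:16863501-16864500 for Igll1, chr13:22009001-22010000 for Prss16, chr6:65144501-65145500 for Hpgds and chr10:81328001-81329000 for Tbxa2r. Each window spans the annotated 5' end of its gene, with the start of the transcribed part and the sequence before it. Tbxa2r is on the plus strand and the other 7 are on the minus strand. The TSS used lies 464 bp inside the Tbxa2r gene and 289 bp inside Tarm1, and within 73 bp of the gene's 5' end for the other 6. Apoc4 has 2 listed TSSs, of which the one with the higher mean was used, and a second gene is within reach of that TSS.

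The promoter sequences of Hpgds, Fblim1, Sema4a and Tarm1 are shown because these 4 windows were also called higher with triptolide in the unbound fraction, which the choice of genes did not use. Each is the 250 bases before a RefSeq start (GRCm38.p6, the build also called mm10, minus strand), written 5′ to 3′ in lower case with every CpG in capitals. The Hpgds sequence lies inside the annotated gene, whose 5' end is at 65144981, and spans the TSS used, at 65144908. That of Tarm1 runs into its annotated gene, whose 5' end is at 3502754.
Hpgds chr6:65144731-65144980: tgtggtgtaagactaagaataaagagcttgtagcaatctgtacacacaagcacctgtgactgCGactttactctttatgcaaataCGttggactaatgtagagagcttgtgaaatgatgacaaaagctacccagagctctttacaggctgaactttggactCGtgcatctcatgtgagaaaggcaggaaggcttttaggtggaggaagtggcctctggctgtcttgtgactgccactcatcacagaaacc
Fblim1 chr4:141606053-141606302: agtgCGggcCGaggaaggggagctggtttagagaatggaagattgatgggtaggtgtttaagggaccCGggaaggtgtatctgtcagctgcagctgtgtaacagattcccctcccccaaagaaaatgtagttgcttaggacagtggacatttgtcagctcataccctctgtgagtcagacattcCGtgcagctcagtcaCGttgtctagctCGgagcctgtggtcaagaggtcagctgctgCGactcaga
Sema4a chr3:88461183-88461432: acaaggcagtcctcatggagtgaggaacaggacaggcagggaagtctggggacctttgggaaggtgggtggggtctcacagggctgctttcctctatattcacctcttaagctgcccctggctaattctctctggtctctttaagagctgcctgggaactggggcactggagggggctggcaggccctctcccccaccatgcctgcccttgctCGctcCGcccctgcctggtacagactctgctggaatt
Tarm1 chr7:3502625-3502874: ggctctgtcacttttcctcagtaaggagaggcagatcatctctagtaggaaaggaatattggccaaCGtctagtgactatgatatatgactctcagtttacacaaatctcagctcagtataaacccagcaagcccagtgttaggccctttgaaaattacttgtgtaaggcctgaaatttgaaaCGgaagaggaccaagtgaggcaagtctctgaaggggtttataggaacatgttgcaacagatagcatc

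These promoters hold few CpGs. The 7 members with a RefSeq promoter had a median of 3 CpGs in 250 bases, against a median of 6 over 32851 mouse promoters of the same length, and a median GC content of 54.0% against 52.4%. Igll1 had 1 CpG, Tarm1 and Sema4a 2 each, Hpgds 3, Apoc4 4, and Fblim1 and Tbxa2r 7 each. The share of promoters with fewer CpGs ran from 7.87% (below Igll1) to 53.7% (below Fblim1 and Tbxa2r). On either strand, the TATA box motif, spelled TATAAA, occurred in 1 of the 7, Tarm1, and in 12.4% of all promoters. CCAAT occurred in 3 (Tarm1, Apoc4 and Tbxa2r) and in 33.8% of all, and GGGCGG (GC box) in 2 (Sema4a and Apoc4) and in 32.7% of all. TGANTCA (AP-1) occurred in 1, Fblim1, and in 6.75% of all. CACGTG (E-box) and AGATAA (bound by Gata factors) were in none of the 7 windows, and in 6.02% and 9.99% of all promoters. A match is a run of letters and not evidence of binding. For Hpgds and Tbxa2r the 250 bases lie inside the annotated gene, and for Tarm1 they do in part.

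Accessibility is given as RPM, the reads in the window scaled to the depth of the library. The EdU libraries held 1.30 to 5.55 M reads and the unbound libraries 2.35 to 14.4 M, so a member's value rests on between 0 and 67 reads. Reads have no molecular tags, so counting intervals cover counting error only. Embryonic stem cell identity was checked on 12 marker genes, of which 11 had a steady-state peak on the TSS window, against 3 of 13 blood cell and 5 of 8 fibroblast markers. The stem cell markers' summed EdU level at 2 h was 88.5 to 99.3 RPM with DMSO and 43.5 to 50.6 with triptolide, while that of the 13 blood cell markers overlapped, at 11.1 to 14.4 and 7.78 to 13.0. The 8 fibroblast markers summed to 13.3 to 13.7 RPM with DMSO and to 7.18 to 12.4 with triptolide, without overlap. The median TSS moved down with triptolide in EdU at 2 h, by 0.29 on the log2(RPM + 1) scale. Windows at least 1000 bp from any listed peak moved the other way, from 0.182 to 0.209 RPM with DMSO to 0.230 to 0.245 with triptolide, a ratio of 1.24. The part of this shift in the members' EdU values was not tested.

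The EdU values that chose the genes were low with DMSO. The DMSO mean at 2 h was 7.79 times the off-peak level for Tbxa2r, 4.61 times for Apoc4 and 3.52 times for Sema4a, and 0.548 to 1.21 times for the other 5. Fblim1 held 0, 0.36 and 0.277 RPM in the 3 DMSO libraries at 2 h and 4.32, 5.90 and 5.58 with triptolide. Sema4a held 0.613, 0.36 and 1.11 RPM with DMSO and 2.59, 7.45 and 6.65 with triptolide. The groups do not overlap for either gene, and the first triptolide library was the lowest of its group for both. Apoc4 held 1.23, 1.08 and 0.277 RPM with DMSO and 5.47, 4.97 and 6.38 with triptolide. Tbxa2r, the most accessible of the 8 with DMSO, held 2.15, 0.719 and 1.66 RPM with DMSO and 6.62, 5.59 and 8.24 with triptolide. For both, every triptolide library stood above every DMSO library, as in 6.0% of all TSSs tested.

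The other 4 genes started from almost no reads. Igll1 held 0.307, 0 and 0 RPM with DMSO and 3.46, 2.17 and 3.46 with triptolide. Prss16 held 0.307, 0 and 0 with DMSO and 3.17, 3.10 and 2.66 with triptolide. For each of these 2 genes a single DMSO read stood against 32 (Igll1) and 31 (Prss16) triptolide reads. Tarm1 held 0.307, 0 and 0.277 RPM with DMSO and 3.74, 2.48 and 4.52 with triptolide. Hpgds held 0.307, 0.36 and 0 with DMSO and 2.02, 3.10 and 5.85 with triptolide. Hpgds varied most among these 4 with triptolide, at 3.66 ± 1.98 RPM (SD, n = 3).

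Summed over 3 libraries, RPM was 25.4 times higher with triptolide for Fblim1 (55 against 2 reads, exact 95% interval 6.71 to 215) and 29.6 times for Igll1 (interval 4.94 to 1200). The ratio was 17.6 for Tarm1 (4.54 to 150), about the same for Hpgds (39 against 2 reads, 4.66 to 154) and 28.6 for Prss16 (4.77 to 1170). It was smaller and better bounded where DMSO had more reads, at 7.65 for Sema4a (3.49 to 19.9), 6.81 for Apoc4 (3.24 to 16.5) and 4.43 for Tbxa2r (2.52 to 8.33). The width of the first 5 intervals comes from the 1 or 2 DMSO reads. The intervals describe counting error in these libraries and are no test, since the genes were picked for this difference.

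On the log2(RPM + 1) scale, which understates the change of low windows, the 8 differences ran from 1.67 (Tbxa2r) to 2.37 (Fblim1) with a median of 1.86, where the median of all TSSs tested was -0.29. All 8 are called higher here by construction, and 2.72% of the 29799 TSSs tested are called higher in that contrast. By this difference Fblim1 ranked 1st of 22965 named genes and Tbxa2r 27th. Another 19 genes ranked between them without being chosen, 6 of them protein-coding. Just below Tbxa2r, at 1.67, stood Cox4i2 (a subunit of cytochrome c oxidase) at 1.66 and Pla2g1b (a secreted phospholipase A2) at 1.65. Relative to all TSSs, the members' EdU level exceeded 16.7% (Igll1, Prss16) to 51.5% (Tbxa2r) of TSSs with DMSO and 81.7% (Prss16) to 98.2% (Tbxa2r) with triptolide.

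**Figure D1:**
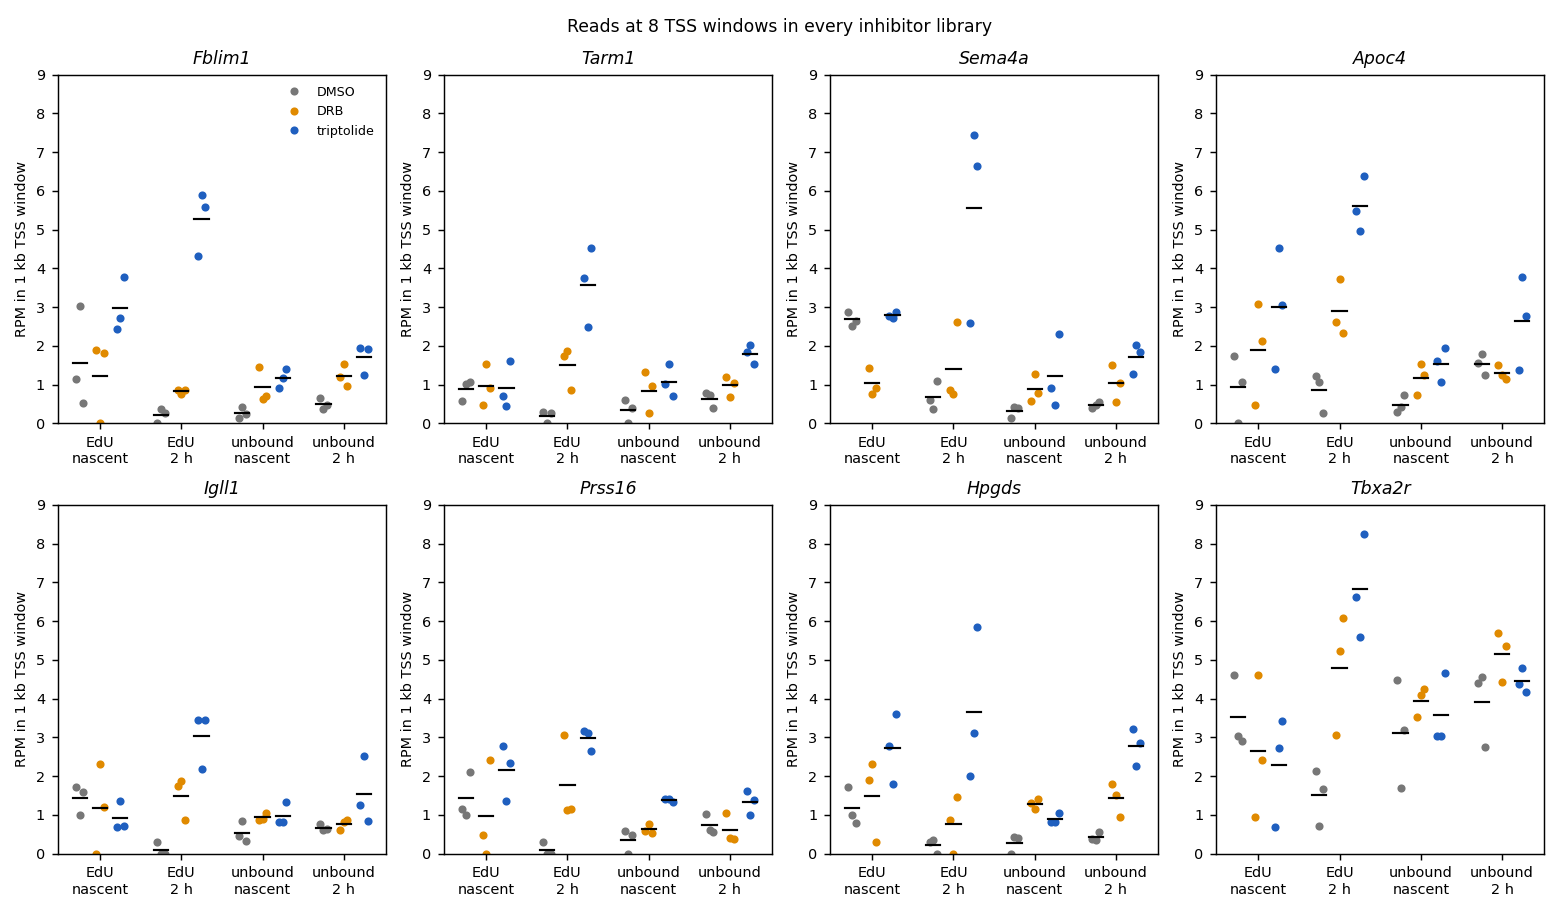
RPM in the 1 kb TSS window (vertical axis) of each gene in the 36 inhibitor libraries, by fraction and time (horizontal axis); points are libraries, coloured by treatment, and black lines are means of 3. With EdU at 2 h, the contrast that chose the genes, the triptolide points lie above the DMSO points in all 8 panels, and in 6.0% of all TSSs tested. In the unbound fraction at 2 h they do so for Fblim1, Tarm1, Sema4a, Igll1 and Hpgds, and in 6.89% of TSSs.

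DRB at 2 h gave EdU values between those of DMSO and triptolide in the group means of all 8 genes. DRB exceeded DMSO by 0.45 (Sema4a) to 1.28 (Prss16) on the log2(RPM + 1) scale, with a median of 1.07, and triptolide exceeded DRB by 0.46 (Tbxa2r) to 1.77 (Fblim1), with a median of 0.83. These values share the DMSO or triptolide libraries with the contrast that chose the genes and are given as a description. Fblim1 stayed low with DRB, at 0.830 ± 0.072 RPM (SD, n = 3), as did Hpgds at 0.775 ± 0.730. Tbxa2r reached 4.79 ± 1.56 RPM and Apoc4 2.89 ± 0.744. Prss16 differed among the DRB libraries, with 3.06, 1.12 and 1.16 RPM.

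With DMSO the mean log2(RPM + 1) level was lower at 2 h than in nascent chromatin at 7 of the 8 windows. Between those times the level went from 1.57 ± 1.30 to 0.212 ± 0.188 RPM for Fblim1, from 2.68 ± 0.183 to 0.693 ± 0.380 for Sema4a and from 1.44 ± 0.381 to 0.102 ± 0.177 for Igll1 (SD, n = 3). Apoc4 was the exception, with a difference of 0.02 (0.929 ± 0.872 and 0.861 ± 0.511 RPM). The median difference of the 8 was -0.93 with DMSO and 0.75 with triptolide, and the median over all TSSs was 0.34 and 0.24. Here too one side of each difference chose the genes, so no test is given. Off-peak windows were lower at 2 h than in nascent DNA under DMSO, 0.193 against 0.306 RPM on average.

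The unbound fraction of the capture measures the same cells with libraries that the choice did not use. There 4 of the 8 promoters rose with triptolide at 2 h, those of Hpgds, Fblim1, Sema4a and Tarm1. The background is 2.26% of 30310 TSSs called higher, and 3.67% of the 13088 TSSs without a steady-state peak on the window, a kind to which all 4 belong and a split added after the values were seen. All 8 differences were above 0, with a median of 0.67 where the median over all TSSs was -0.06. Hpgds held 0.389, 0.36 and 0.548 RPM with DMSO and 3.22, 2.27 and 2.86 with triptolide. It rose by 1.40 ± 0.22 (SE) on the log2(RPM + 1) scale (limma, adjusted p = 9.93e-06), and in summed reads its RPM was 6.40 times higher (exact 95% interval 3.52 to 12.6).

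Sema4a held 0.389, 0.48 and 0.548 RPM with DMSO and 1.27, 2.02 and 1.85 with triptolide, a difference of 0.87 ± 0.24 (SE, adjusted p = 0.00888). Fblim1 held 0.648, 0.36 and 0.47 with DMSO and 1.96, 1.26 and 1.93 with triptolide, a difference of 0.86 ± 0.22 (adjusted p = 0.00449). Tarm1 held 0.777, 0.72 and 0.392 with DMSO and 1.84, 2.02 and 1.54 with triptolide, a difference of 0.79 ± 0.23 (adjusted p = 0.016). In these 3 genes the DMSO and triptolide libraries do not overlap, and the triptolide mean was 1.71 to 1.80 RPM. The Tarm1 call was lost without triptolide replicate 2 (adjusted p = 0.0595) or DMSO replicate 3 (0.0891), while no single library ended the calls of Hpgds, Sema4a and Fblim1. The rise was called in the same number of members, 4, when libraries were scaled to off-peak windows, whose unbound level was 1.22 times higher with triptolide.

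The other 4 promoters did not pass the test in this fraction. Igll1 differed by 0.56 (adjusted p = 0.0892) with 0.777, 0.6 and 0.627 RPM under DMSO and 1.27, 2.52 and 0.849 under triptolide, groups that just fail to overlap. Apoc4 differed by 0.47 (adjusted p = 0.217) and Prss16 by 0.44 (adjusted p = 0.193), with overlapping libraries. Tbxa2r, already the most accessible of the 8 in the unbound fraction, stood at 3.90 ± 1.01 RPM with DMSO and 4.44 ± 0.317 with triptolide (SD, n = 3), a difference of 0.17 (95% interval -0.24 to 0.58). The triptolide libraries all lay above the DMSO libraries in 5 of the 8 members, the 4 called and Igll1, and in 6.89% of TSSs.

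**Figure D2:**
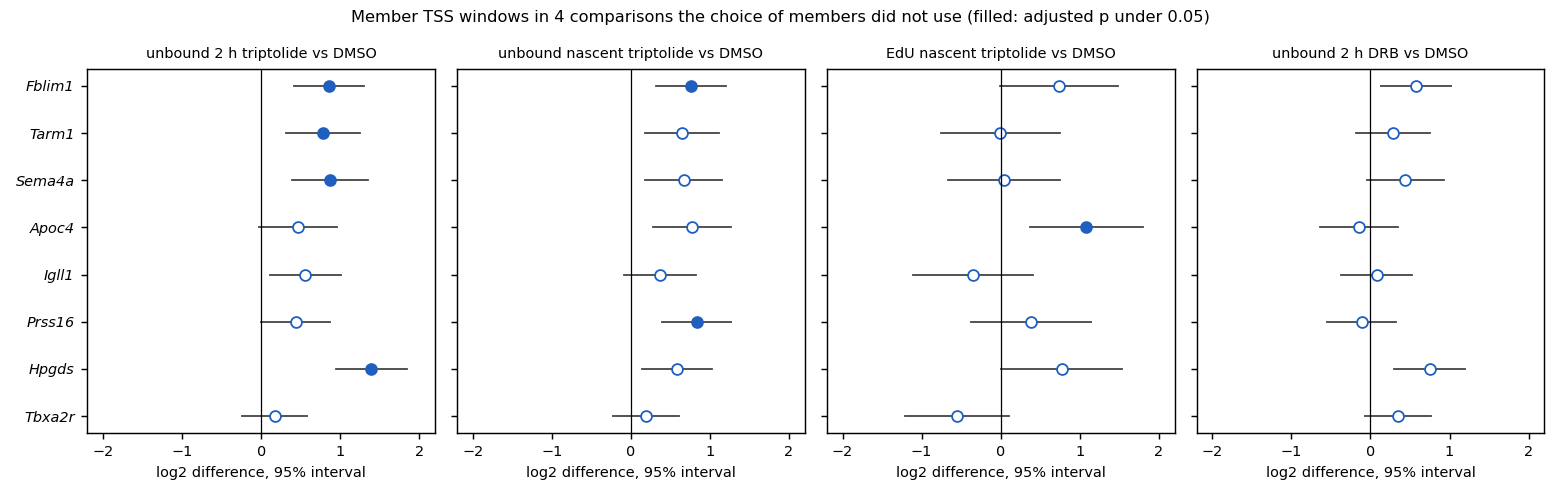
Log2(RPM + 1) difference (horizontal axis) of each gene's TSS window with its 95% interval in 4 comparisons. The groups compared did not choose the genes. Intervals and calls of any EdU comparison come from a fit that also held the libraries that chose them. Filled points passed the adjusted threshold of 0.05. Hpgds, Fblim1, Sema4a and Tarm1 are filled in the unbound 2 h panel, and all 8 points lie right of 0 in both unbound triptolide panels.

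Unbound chromatin taken right after the pulse showed the difference too. Prss16 rose by 0.83 ± 0.22 (SE, limma, adjusted p = 0.025), with 0.598, 0 and 0.491 RPM under DMSO and 1.41, 1.41 and 1.32 under triptolide. Fblim1 rose by 0.76 ± 0.22 with an adjusted p of 0.04997, just under the threshold, from 0.149, 0.425 and 0.246 RPM to 0.909, 1.17 and 1.39. These 2 of 8 stand against 0.709% of TSSs called higher, and the median of the 8 was 0.66 against 0.02 over all TSSs. Apoc4 (0.77, adjusted p = 0.0888), Sema4a (0.67), Tarm1 (0.64) and Hpgds (0.58) were above 0 without passing. In 6 of the 8 genes the libraries do not overlap, as in 9.31% of TSSs. Both calls depended on single libraries. Fblim1 lost its call without any 1 of the 6 libraries (adjusted p 0.0539 to 0.22). Prss16 lost it without any 1 of the 3 triptolide libraries (0.0731 to 0.0931) or without DMSO replicate 2 (0.21), which held no read. The Prss16 call was also lost with limma-voom (0.0642) or 2 groups alone (0.194). That of Fblim1 was lost with a pseudocount of 2, no filter, either rescaling, 2 groups alone or windows within 1500 bp (0.0546 to 0.15).

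The triptolide difference at 2 h was not separable from that in nascent unbound chromatin for any member. The change of the difference between the times ran from -0.40 (Prss16, adjusted p = 0.648) to 0.81 (Hpgds, adjusted p = 0.303), and limma called 0 of 8, where 1 of them, Hpgds, had an unadjusted p under 0.05. Over all TSSs this contrast called 0.0264% in either direction. The times used separate DMSO libraries. Set against DRB at 2 h in the unbound fraction, triptolide was higher by 0.28 to 0.65 in 7 genes and lower by 0.17 in Tbxa2r. In limma 0 of 8 passed (Hpgds 0.65, adjusted p = 0.0559), against 0.815% of TSSs called higher and 9.09% called in either direction, and 5 of 8 had an unadjusted p under 0.05.

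DRB against DMSO shares its DMSO libraries with the triptolide comparisons. At 2 h in the unbound fraction limma called 0 of 8, as did limma-voom on read numbers, against 0.769% of TSSs called higher, and 2 of 8 had an unadjusted p under 0.05. Those were Hpgds, at 1.43 ± 0.428 RPM with DRB and 0.432 ± 0.101 with DMSO (difference 0.75, adjusted p = 0.0767), and Fblim1 at 1.23 ± 0.283 and 0.493 ± 0.145 (0.57, adjusted p = 0.225). In nascent unbound chromatin Hpgds rose by 0.86 ± 0.22 (SE, adjusted p = 0.0418), with 1.32, 1.15 and 1.41 RPM under DRB and 0, 0.425 and 0.409 under DMSO. It was the 1 member called, against 0.267% of TSSs. The call was lost without any 1 of the 6 libraries (adjusted p 0.0502 to 0.167), with a pseudocount of 2 (0.0519), 2 groups alone (0.267) or no filter, where it fell just over the threshold. All 8 members were above 0 there, from 0.28 (Prss16) to 0.86, with a median of 0.47.

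In nascent EdU chromatin with triptolide 1 of 8 members, Apoc4, rose, by 1.09 ± 0.36 (SE, limma, adjusted p = 0.0324), against 0.45% of TSSs called higher. It held 1.73, 0 and 1.06 RPM with DMSO and 1.39, 4.53 and 3.06 with triptolide, so the groups overlap. The call was lost without triptolide replicate 2 (adjusted p = 0.24) or 3 (0.1), and without DMSO replicate 2 (0.296), which held no read. It was also lost with off-peak scaling (0.0586), limma-voom (0.0614), the 2 groups fitted alone (0.199) and windows within 1500 bp (0.0886). The main fit took its variance from every EdU group, including the libraries that chose the genes, so the tests in nascent EdU chromatin drew on them. Hpgds (0.77, adjusted p = 0.192), Fblim1 (0.73, adjusted p = 0.208), Prss16 (0.38) and Sema4a (0.04) were above 0 without passing. Tarm1 (-0.0049), Igll1 (-0.35) and Tbxa2r (-0.56) were below 0, and the median of the 8 was 0.21 against -0.23 over all TSSs. Over the 12577 TSSs without a steady-state peak on the window, 0.891% were called higher and the median was 0.02. The 7 members of that kind had a median of 0.38. This split was added after the values were seen. With DRB limma called 0 of 8 in nascent EdU chromatin, as did limma-voom, against 0.282% of TSSs called higher. There Sema4a alone had an unadjusted p under 0.05, 1 of 8, at -0.87 (adjusted p = 0.149).

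Under DRB the difference between the times rests on libraries that the choice did not use. Its SE came from the fit of every EdU group, which includes the libraries that chose the genes. From nascent to 2 h EdU chromatin limma called 0 of 8 members, as did limma-voom and limma on the 2 groups alone. Of all TSSs 35.1% were called higher, and 1 of 8 members had an unadjusted p under 0.05. That was Tbxa2r, at 2.66 ± 1.85 RPM in nascent and 4.79 ± 1.56 in 2 h chromatin (SD, n = 3), a difference of 0.75 (adjusted p = 0.0658). The median of the 8 was 0.34 and that of all TSSs 0.44. Igll1, at 1.17 ± 1.16 and 1.49 ± 0.544 RPM, and Tarm1, at 0.973 ± 0.536 and 1.49 ± 0.544, stayed within the spread of their libraries.

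Without inhibitor, the spike-in experiment gives 5 kb regions at the TSS on a log2 scale set by the authors. Igll1 rose from 5.33 and 6.11 in nascent to 7.07 and 7.01 in 2 h chromatin, a difference of 1.32 ± 0.52 (SE, limma, adjusted p = 0.0398). This was the 1 of 8 called, against 30.1% of TSSs called higher. Its 5 kb region reaches the nearby peak described below. Fblim1 stood at 4.98 and 6.11 in nascent and at 4.30 and 4.47 in 2 h chromatin, a difference of -1.17 (adjusted p = 0.0937). The other 6 differed by -0.57 (Tarm1, Tbxa2r) to 0.43 (Prss16). The median of the 8 was -0.06, and that of all TSSs 0.79. The call of Igll1 was lost without either 2 h library (adjusted p 0.729 and 0.687) and with the replicate number as a block (0.242). Fblim1 was called lower without nascent replicate 1 (adjusted p = 5.49e-05) and with all libraries centred on the median TSS (5.6e-05).

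Ordered by mean over the 12 inhibitor groups, EdU at 2 h with triptolide came first for all 8 genes, and EdU at 2 h with DMSO last for 6, with Apoc4 at rank 11 and Sema4a at rank 10 there. Both groups chose the genes, so their places largely follow from the choice and are a description. Most steps between were within the spread. Of 11 neighbouring pairs in that order, 8 overlapped for Fblim1, 10 each for Tarm1, Sema4a, Apoc4 and Igll1, and all 11 for Prss16, Hpgds and Tbxa2r. For Fblim1 the first group (5.27 ± 0.835 RPM) stood clear of the second, nascent EdU with triptolide (2.98 ± 0.710). For Hpgds the second was unbound 2 h chromatin with triptolide (2.78 ± 0.482 RPM), which overlapped the first (3.66 ± 1.98). All 8 genes passed the filter of reads in at least 3 of the 18 libraries of a fraction. Leaving out the 2 h triptolide libraries, they had reads in 12 (Igll1, Prss16) to 15 (Sema4a, Tbxa2r) of 15 EdU libraries.

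Most of these promoters carried no called peak in the deposited lists. All of these lists come from samples without inhibitor, so they cannot show whether a peak forms with triptolide. Tbxa2r alone had a peak on the TSS window, in the 30 min, 1 h and steady-state lists, so 1 of 8 members had a steady-state peak there against 53.8% of all TSSs. None had one in the nascent list (33.6% of TSSs) or the 2 h list (47.7%). No member had a peak of RNA polymerase II phosphorylated at serine 5, the initiating form, within 5 kb, against 21.4% of TSSs. Within 5 kb, 6 of 8 had a steady-state peak, near the 68.9% of all TSSs, and Tarm1 and Hpgds had no peak of any list. The peak caller is not named in the sources used here.

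In the group means at 2 h, the average of the windows beside the TSS was also higher with triptolide in every member but Igll1. Averaged over 10 windows up to 5 kb on both sides, the EdU level at 2 h was 1.26 ± 0.067 RPM with DMSO and 3.74 ± 0.293 with triptolide at Fblim1 (SD, n = 3), and 0.236 ± 0.211 and 1.05 ± 0.408 at Hpgds. At Igll1 the flanks went from 2.23 ± 0.493 RPM with DMSO to 1.88 ± 0.179 with triptolide in EdU, with overlap. Its unbound flanks fell from 2.34 ± 0.229 to 1.67 ± 0.203 RPM, without overlap. The flanks of 7 of 8 members had all triptolide libraries above all DMSO libraries, against 19.8% of TSSs, in the contrast that chose the genes. The median ratio of the flanks was 2.34, against 0.882 over all TSSs and 17.4 for the members' own TSS windows. In the unbound fraction the flanks of 4 members, Fblim1, Tarm1, Apoc4 and Hpgds, stood apart in this way, as did those of 19.7% of TSSs. Their median ratio over the 8 members was 1.42, against 1.03 over all TSSs and 2.59 at the members' TSS windows.

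At Hpgds the triptolide profile at 2 h was a single hump on the TSS. With DMSO the TSS window stood at 0.94 times the flank mean in EdU and 2.42 times in the unbound fraction. In all 21 windows within 5 kb triptolide exceeded DMSO in both fractions. With triptolide the unbound TSS window held 2.78 RPM against a flank mean of 0.603 ± 0.066 (SD, n = 3). Fblim1, Tarm1 and Tbxa2r were higher in all 21 EdU windows too, and in 20, 19 and 15 unbound windows. Apoc4 was higher in 20 EdU and 19 unbound windows, and Sema4a in 18 and 15. Prss16 was higher in 16 EdU and 17 unbound windows, and Igll1 in 16 and 12. Neighbouring windows overlap, the EdU counts come from the contrast that chose the genes, and no share over all TSSs is given. All members but Tarm1 and Hpgds, 6 in number, have called peaks within 5 kb. At the peak window with the highest DMSO mean in EdU, triptolide was lower in the group mean for 4 of them and higher for 2. Picking a window by its high DMSO mean in EdU itself favours a lower triptolide value there, so this split is a description.

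Upstream of Igll1, the window centred at -2516 bp, on a peak of every list from nascent to steady state, had 14.6 RPM with DMSO and 4.46 with triptolide in EdU, and 14.3 and 7.47 in the unbound fraction. At Sema4a the window at +2182 bp had 6.68 RPM with DMSO and 5.63 with triptolide in EdU, and 6.70 and 4.44 unbound. At Prss16 the window at +3242 bp had 10.95 RPM with DMSO and 8.84 with triptolide in EdU, and 13.5 and 11.4 unbound. At Apoc4 the window at -3584 bp had 5.45 and 5.20 RPM in EdU, and 3.74 and 2.21 unbound. At these 4 windows the unbound DMSO and triptolide libraries did not overlap, and in EdU they stood apart at Igll1 alone. The means at Fblim1 and Tbxa2r went the other way. At Fblim1 the window at +5096 bp had 4.50 RPM with DMSO and 6.96 with triptolide in EdU, without overlap, and 3.99 and 5.05 unbound, with overlap. At Tbxa2r the window at +768 bp had 2.44 and 5.55 RPM in EdU, and 2.64 and 4.03 unbound, without overlap in either fraction. These 6 windows were described after their values were seen and were not tested.

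**Figure D3:**
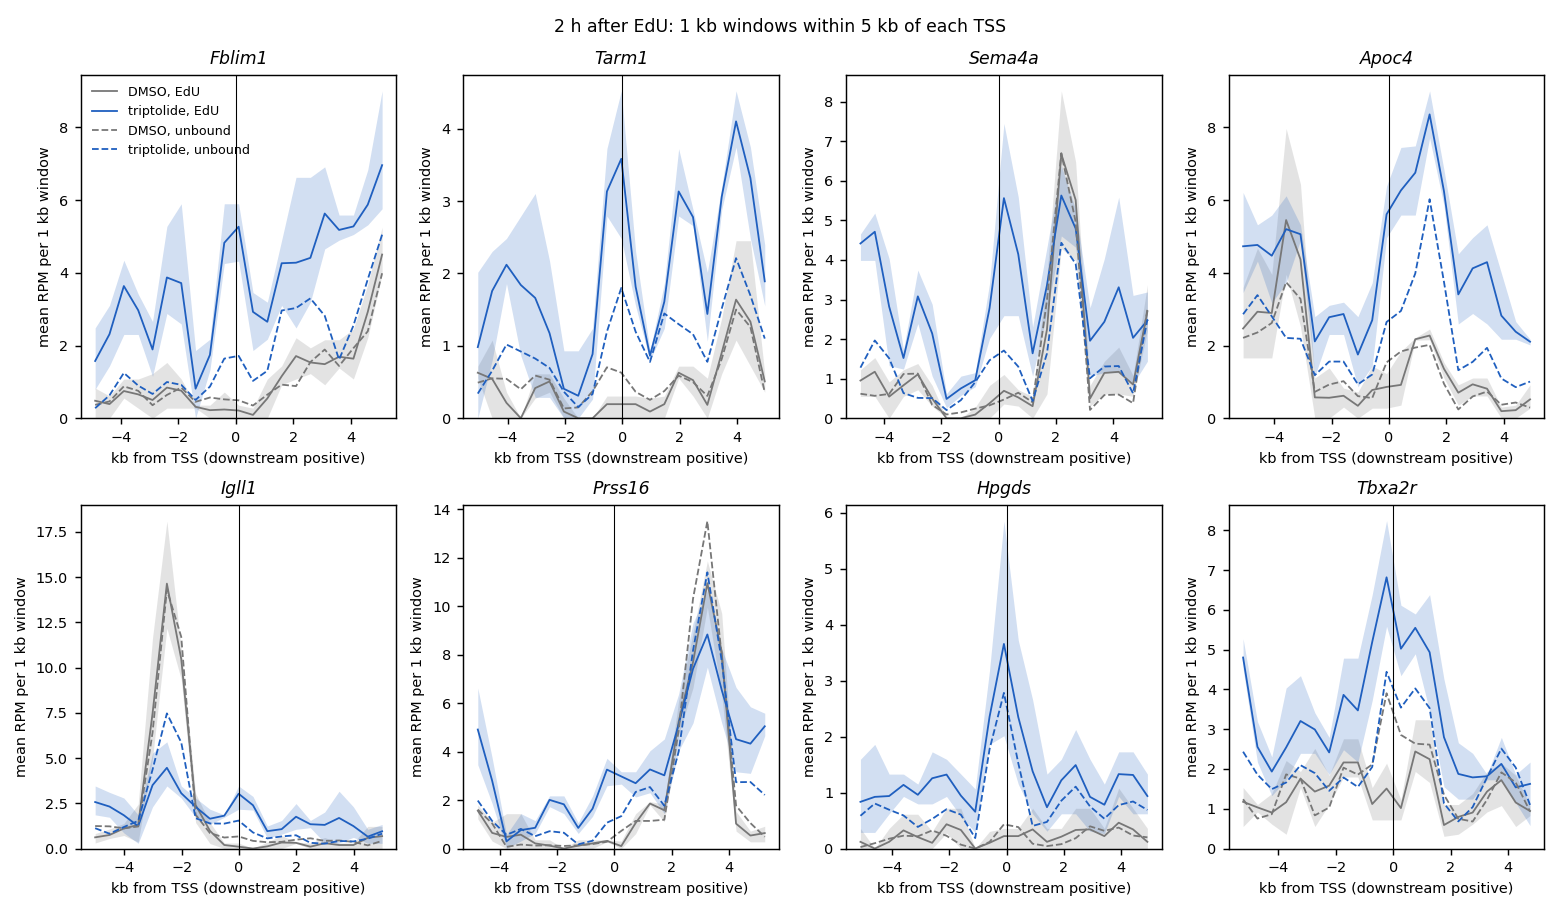
Mean RPM of 1 kb windows (vertical axis) by distance from the TSS in kb, downstream positive (horizontal axis), 2 h after EdU; solid lines are EdU and dashed lines unbound libraries, and shading is the range of the 3 EdU libraries. Blue triptolide lines lie above grey DMSO lines at the TSS of all 8 genes, and below them at the peak upstream of Igll1 (4.46 against 14.6 RPM in EdU).

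The genes whose TSSs flank the members went both ways. Over all TSSs in unbound chromatin at 2 h, 2.26% were called higher with triptolide and 12.2% lower. Of the 16 flanking genes, 2 rose in the unbound fraction at 2 h, both beside Tarm1: Oscar, an osteoclast receptor of the same receptor cluster, at 1.11 (adjusted p = 0.000894), and the miRNA gene Gm23450 at 0.68 (adjusted p = 0.0343). Oscar stands 113692 bp and Gm23450 87399 bp from the Tarm1 TSS. Another 4 fell: Top3b, a topoisomerase 6751 bp from Igll1, by 0.67 (adjusted p = 0.00457), Cactin by 0.63 (adjusted p = 0.000339), Apoc1 by 0.51 (adjusted p = 0.00674) and Lmna by 0.40 (adjusted p = 0.0319). Apoc1, in the same cluster as Apoc4 and 11242 bp away, held 12.2 RPM with DMSO and 8.34 with triptolide. Cactin, 7629 bp from Tbxa2r, held 17.7 and 11.2 RPM. A steady-state peak lay on the TSS window of 14 of the 16, including these 4 and Gm23450, but not Oscar.

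Functional relatives of the members went both ways too. Of 75 related genes listed, 61 had a TSS and 60 were tested. In the unbound fraction at 2 h with triptolide 5 of the 60 rose and 9 fell, against 2.26% of all TSSs called higher and 12.2% called lower, with a median of -0.06 in both this list and all TSSs. In the prostanoid list 0 of 12 rose and 1 fell, the synthase Ptges2 by 0.63 (adjusted p = 0.000787). The cyclooxygenases Ptgs1 (0.02) and Ptgs2 (0.04) and the other prostaglandin D synthase, Ptgds (-0.04), were near 0. Of 10 early B-cell genes 1 rose, Dntt, which adds nucleotides to antigen receptor joints, by 0.35 (adjusted p = 0.0387), while Vpreb3, a relative of the surrogate light chain genes, stood at 0.45 (adjusted p = 0.162). Of 4 leukocyte receptor complex genes 2 rose, Oscar and the platelet collagen receptor Gp6 (0.54, adjusted p = 0.0262).

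Of 8 class 4 semaphorins and receptors 1 rose, Plxnb3 by 0.58 (adjusted p = 0.0235), and 2 fell, Sema4g by 0.66 (adjusted p = 0.00539) and Sema4f by 0.44 (adjusted p = 0.0363). Of 8 apolipoprotein genes 1 rose, Apoa5 by 0.58 (adjusted p = 0.0355), and 1 fell, Apoc1. None of the 11 filamin and integrin adhesion genes rose and 3 fell, among them talin (Tln1) by 0.72 (adjusted p = 8.68e-05) and vinculin (Vcl) by 0.44 (adjusted p = 0.0318). None of the 7 thymic and lysosomal proteases rose, and 2 fell, Ctsd by 0.44 (adjusted p = 0.0448) and Prcp by 0.37 (adjusted p = 0.0351).

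Across the 36 libraries, with the mean of each fraction removed, the members' own profiles had Pearson correlations of 0.627 (Tbxa2r) to 0.813 (Tarm1) with the mean of the other 7. The contrast that chose the genes contributes to these values. Among the 5 genes most like the mean profile were Gm25848 (a small nucleolar RNA gene, r = 0.851), 4930556N13Rik (0.82) and Uchl4 (0.819). Of these 3, 4930556N13Rik alone had a steady-state peak on its TSS window. The libraries share depth and fraction between genes, so these correlations are a description.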

How the data were processed

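Reads had been trimmed and aligned by the authors with Trim Galore 0.4.2 and Bowtie2 2.2.6.2 to mm10, per the submitters' processing notes. The deposited inhibitor table holds log2(RPM + 1) in 1 kb windows every 500 bp, per the file headers, and the deposited spike-in table holds log2 values of 5 kb TSS regions whose S2 scaling no source used here states. The authors' peak lists give positions alone, in start and end columns. RPM was recovered by undoing the log2, and whole reads by the step of 1 read, which 100% of values met within 0.1 read in all 36 libraries. No column was left out.

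TSSs were named from RefSeq genes within 1000 bp. Those above 0 in at least 3 of 18 libraries of a fraction (2 in the spike-in table) entered limma 3.58.1 (R 4.3.3, trend) as log2(RPM + 1), with every group of a fraction in the fit and Benjamini-Hochberg adjustment over all TSSs and a threshold of 0.05. The method was tried on simulated reads with changes placed only in TSSs with a mean above 2 RPM. Most members lie below that level in the unbound fraction, so the trial does not cover calls at their read numbers. With 3 libraries against 3, an exact permutation test of one value cannot go below 0.1. Named genes were the members, their flanking genes, the related lists, the 5 most alike by profile and those ranked next to the members. Of the 5 most alike, 3 are described and the others are not reported here. The members and lists were chosen with earlier results of these data known. The labels do not say that replicate numbers pair libraries, and the main fits used no pairing. Correlations of libraries with the same number were low, at -0.02 to 0.12, against -0.129 to 0.105 for different numbers. In unbound nascent chromatin with triptolide and DMSO they were 0.013 to 0.119 for the same number and -0.115 to 0.017 for different numbers. A weak pairing may thus be present. Alternatives were other pseudocounts, filters, scalings, a wider window, limma-voom, fewer groups, a replicate block and each library left out. Tables and plots were made with pandas 2.3.3, matplotlib 3.10.9, scipy 1.17.1 and numpy 2.4.6 in Python 3.11.15.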

Additional observations from a re-analysis of the deposited data

How the results depend on the processing

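Counts are of the 8 members called. In unbound 2 h chromatin triptolide gave 4, and 4 under other pseudocounts, no filter, centring, off-peak scaling, limma-voom, fitting 2 groups alone or the replicate block. It gave 7 over windows within 1500 bp, 1 with a mean of at least 1 RPM (which left few members to test), and 3 to 5 with each library left out. For nascent EdU with triptolide the count of 1 was 0 with off-peak scaling, limma-voom, 2 groups alone or 1500 bp, and 0 to 1 with a library left out. For unbound nascent chromatin with triptolide the count of 2 was 1 with a pseudocount of 2, no filter, a mean of at least 1, centring, off-peak scaling, limma-voom or 1500 bp, 0 with 2 groups alone, and 0 to 1 with a library left out. With DRB there, 1 became 0 with a pseudocount of 2, no filter, 2 groups alone or any library left out (0 to 0). At 2 h with DRB, 0 became 1 with a mean of at least 1 or 1500 bp. From nascent to 2 h EdU under DRB, 0 became 1 with a mean of at least 1, 3 with off-peak scaling, 2 over 1500 bp, and 0 to 1 with a library left out. In the spike-in data 1 became 5 (4 of them lower) when centred on the median TSS, with Sema4a at -0.72 instead of 0.10, 0 with the replicate block (Igll1 1.32, adjusted p = 0.242), and 0 to 3 with a library left out. The block changed no other call of a member. The cause of these changes was not tested. The labels give replicates a number and state no pairing. Over all TSSs, both directions together, the number called also moved by more than 1.5 times. With triptolide it ran from 2715 to 8063 in unbound 2 h chromatin (4397 as reported), from 125 to 1002 in unbound nascent (678) and from 583 to 4198 in nascent EdU chromatin (3580). With DRB it ran from 79 to 1007 (449), 7 to 558 (274) and 0 to 1523 (1087) in the same order, and in the spike-in data from 2 to 18044 (9637). The 0 came from limma on 2 groups alone, with 3287 TSSs at an unadjusted p under 0.05, where limma-voom called 6 higher and 85 lower. At 1.30 to 5.55 M reads in EdU, differences resting on a few reads cannot be measured closely.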
